A study of Arabidopsis thaliana with 12 samples.

Results

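The comparison described here sets the Arabidopsis thaliana mutant aig2abc pad4 against the wild type Col-0, 3 libraries against 3 of the 12 in the series, chosen by their genotype labels and read over all genes. The mutant combines mutations in 3 neighbouring genes of chromosome 3, AIG2A, AIG2B and AIG2C, with a mutation in PAD4. Both groups were whole shoots of plants aged 2 weeks, kept at 22 °C under constant light of 100 µmol per square metre and second and 50% humidity, and nothing besides the genotype is given as differing between them. The other 6 libraries were 3 of aig2abc and 3 of pad4, each the matching mutant without the other lesion, and their values are set beside those of the named genes. The pad4 labels are numbered 1, 2 and 4, and the pad4 count columns 1, 2 and 3. The column numbered 3 was taken as pad4 by its genotype name and is matched to no label. The labels name no alleles, do not describe the lesions of the AIG2 genes, and do not say how many lines were used or whether shoots were pooled. Whether replicates were grown apart is not stated either, so that the p-values below measure only the scatter among libraries, estimated over all 12, and that scatter may be technical.

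PAD4 encodes a lipase-like protein that works with EDS1 to promote salicylic acid signalling in immunity against biotrophic pathogens. A further branch of defence, driven by jasmonate and ethylene through transcription factors such as ORA59, controls defensins against necrotrophic fungi and is commonly antagonised by salicylic acid. Brassicaceae also make chemical defences from tryptophan, among them the phytoalexin camalexin and the indole glucosinolates. The aig2abc pad4 mutant asks which transcripts depart from the wild type when the AIG2 genes are mutated in plants that also carry the pad4 mutation.

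RNA was measured by 3′ RNA-seq, which counts transcripts near their 3′ ends. The aig2abc pad4 libraries held 8330632, 5542138 and 6429050 counts, and the Col-0 libraries 9026738, 6561011 and 9742035. The pad4 libraries held 10298550, 10697612 and 7991739 counts, and the aig2abc libraries were shallower, at 2867679, 584342 and 3005199. A floor of 3 counts over the group corresponds to 0.479 CPM in aig2abc, so its low values are imprecise, those of replicate 2 most of all. Levels are given as CPM, counts scaled to a common library size with TMM factors. In aig2abc pad4, replicates 1 and 2 were close to each other (Pearson r of log2 CPM over genes 0.982) and replicate 3 stood apart from them (r 0.928 and 0.938). In Col-0, replicates 2 and 3 were close (r 0.977) and replicate 1 stood apart (r 0.946 and 0.941). All pairs of replicates differed by more than counting noise, and each library was counted on its own.

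The mutated genes were examined first. AIG2C had 5, 2 and 2 counts in the aig2abc pad4 libraries, or 0.481, 0.301 and 0.329 CPM, against 26.4, 54.1 and 55.9 CPM in Col-0. It was close to silent in all 3 mutant libraries and abundant in all 3 wild-type ones, a log2 fold change of -6.81 ± 0.43 (SE; edgeR quasi-likelihood test, adjusted p = 2.92e-08). PAD4 stood at 5.10, 8.14 and 5.92 CPM in aig2abc pad4, against 17.1, 27.2 and 35.2 CPM in Col-0. Every mutant library was below every wild-type library, and PAD4 fell by 2.06 on the log2 scale (adjusted p = 0.00047).

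AIG2A and AIG2B moved in opposite directions. AIG2A had 209, 227 and 209 CPM in aig2abc pad4, against 73.2, 64.3 and 62.6 CPM in Col-0, and rose by 1.69 ± 0.22 (log2 ± SE; adjusted p = 0.000213). AIG2B had 84.5, 125 and 353 CPM in aig2abc pad4, against 500, 844 and 963 CPM in Col-0, and fell by 2.04 on the log2 scale (adjusted p = 0.0203). The groups did not overlap for either gene, but AIG2B was higher in aig2abc pad4 replicate 3 than in the other two mutant libraries. Its call was lost without aig2abc pad4 replicate 1 (log2 change -1.66, adjusted p = 0.0722) or replicate 2 (-1.80, 0.117), and without Col-0 replicate 2 (-1.96, 0.0704) or replicate 3 (-1.84, 0.0727), and the change was -2.88 without aig2abc pad4 replicate 3. A 3′ tag outside the altered stretch of a gene does not test the mutation, and the 3 AIG2 genes are related copies whose reads can be shared, so the split between them is uncertain. EDS1, the partner of PAD4, had 8.37, 6.78 and 6.58 CPM in aig2abc pad4 and 3.11, 4.72 and 9.38 CPM in Col-0, ranges that overlapped.

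Of 15082 genes tested, 263 differed between aig2abc pad4 and Col-0 at an adjusted p under 0.05, which is 1.74%. Of these 214 were higher in the mutant, 1.42% of the genes tested, and 49 were lower, 0.325%. The mutant and wild-type libraries did not overlap for 262 of the 263 genes, and 258 of the changes were 2-fold or more. Both counts are of genes selected by a small p in these same libraries, so they are not separate evidence for the calls. The median log2 change was 2.22 among the genes that rose and -1.43 among those that fell, against -0.01 over all genes tested, and 35 genes rose by at least 4 on the log2 scale. In whole shoots, fewer cells of a type and less RNA per cell cannot be told apart. The count depended on the libraries: it was 163 without aig2abc pad4 replicate 2, and the number of genes that fell was 14 without aig2abc pad4 replicate 1, 13 without aig2abc pad4 replicate 2, 25 without Col-0 replicate 1 and 23 without Col-0 replicate 2. Without aig2abc pad4 replicate 3 the genes that fell numbered 85.

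**Figure D1:**
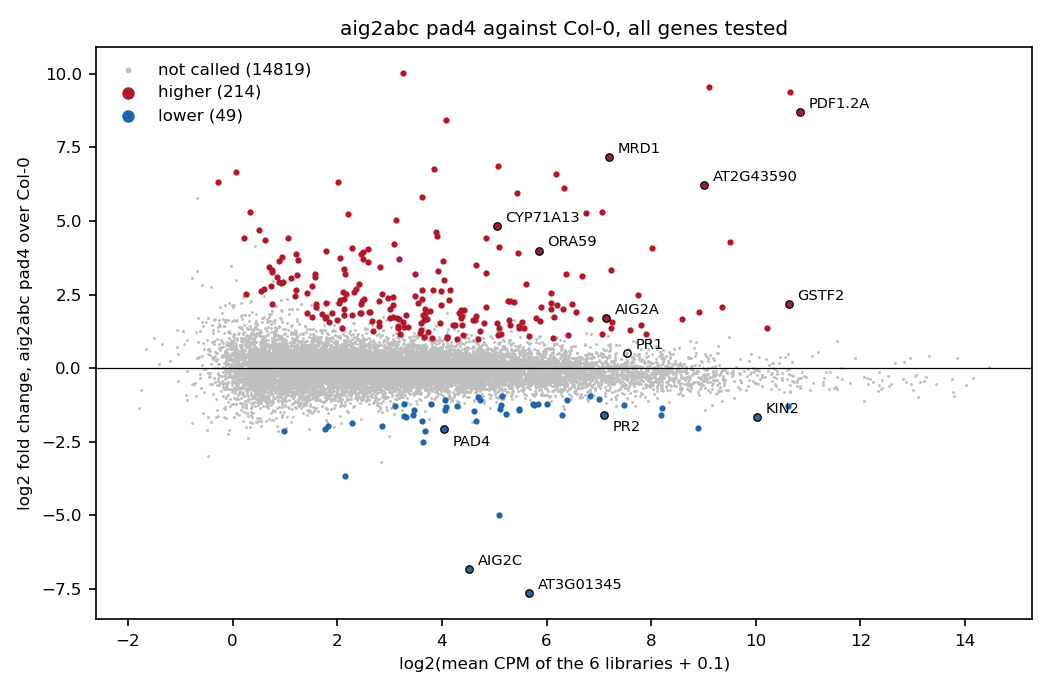
Each point is 1 of 15082 genes tested, with the log2 fold change of aig2abc pad4 over Col-0 on the vertical axis against the log2 mean CPM of the 6 libraries (plus 0.1) on the horizontal axis; red marks the 214 genes that were higher, blue the 49 that were lower, and grey those not called. PDF1.2A lies far above the line at a high level, AIG2C and AT3G01345 far below it, and PR1 close to it.

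The defensin branch of jasmonate and ethylene signalling had the highest median of the 21 pathway lists. Of its 18 genes 15 were tested and 10 were called, all of them higher in aig2abc pad4, with a median log2 change of 3.34. Over all genes tested 1.42% were called higher and 0.325% lower, the shares to set beside this and each later list count. The regulator ORA59, an AP2/ERF transcription factor that activates defensin genes, had 95.2, 107 and 126 CPM in aig2abc pad4, against 7.66, 8.77 and 4.29 CPM in Col-0. Its lowest mutant library was far above its highest wild-type library (log2 change 3.99 ± 0.30 SE, adjusted p = 1.89e-07).

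PDF1.2A, the defensin most used as a readout of this branch, had 4375, 3899 and 2731 CPM in aig2abc pad4, against 9.88, 12 and 5.09 CPM in Col-0. The mean was 412-fold higher in the mutant by the fitted model (log2 change 8.69 ± 0.45 SE, adjusted p = 5.22e-09), the lowest of the 3 mutant values being that of replicate 3. PDF1.2C showed the same order, with 4264, 3565 and 1766 CPM in aig2abc pad4 and 5.88, 6.58 and 2.2 CPM in Col-0 (log2 change 9.37, adjusted p = 6.11e-09). PDF1.3 had 1730, 1220 and 370 CPM in aig2abc pad4 and 1.78, 1.52 and 1.1 CPM in Col-0 (log2 change 9.55, adjusted p = 3.08e-08). These defensins are near-identical copies, so reads may have been split among them, and the rise is better read for the group than for each copy.

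Other members had few or no counts in the wild type. PDF1.2B had 44.7, 43.4 and 12.8 CPM in aig2abc pad4 and 2 counts in all over the Col-0 libraries: the ratio was 449 (95% interval from counting error, 124 to 3711; edgeR adjusted p = 3.76e-06). PDF1.1 had 20.9, 18.1 and 18.1 CPM in aig2abc pad4 and 0 counts in Col-0, and was at least 161-fold higher against a floor of 3 counts over the group. The ERF2 and ERF5 transcription factors (log2 changes 2.13 and 1.38) rose, as did HEL, a chitin-binding pathogenesis-related protein (3.34), and CHI-B, a basic chitinase (3.65). The members that did not pass lay between -0.57 (PDF1.4) and 1.72 (ERF104). With PDF1.1 at its bound the median of the list did not change.

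The promoter windows of the most changed genes were read for the GCC box, AGCCGCC, the sequence that ERF factors such as ORA59 bind. Windows ran from 250 bases before to 50 bases after the RefSeq gene start in TAIR10.1, and both strands were searched. A GCC box stood in 17 of the 214 windows of genes that rose (7.94%) and in 0 of the 42 windows of genes that fell, against 130 of 14752 genes tested (0.881%). Of the 54 named genes with a window, 4 held a GCC box and rose. The windows of the defensins PDF1.2C and PDF1.3 held none, and the box of Prx37 lay after the gene start. The 4 windows with a box are printed with it in capitals.
PDF1.2A, chr5:17907589-17907888, minus strand, box starting at -223: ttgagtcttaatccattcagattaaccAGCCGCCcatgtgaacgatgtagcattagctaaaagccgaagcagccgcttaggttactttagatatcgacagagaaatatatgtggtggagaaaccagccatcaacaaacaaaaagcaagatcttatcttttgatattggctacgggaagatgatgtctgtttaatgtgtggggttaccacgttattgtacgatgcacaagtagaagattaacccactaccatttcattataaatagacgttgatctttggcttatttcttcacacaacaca
PDF1.2B, chr2:11088873-11089172, plus strand, box starting at -144: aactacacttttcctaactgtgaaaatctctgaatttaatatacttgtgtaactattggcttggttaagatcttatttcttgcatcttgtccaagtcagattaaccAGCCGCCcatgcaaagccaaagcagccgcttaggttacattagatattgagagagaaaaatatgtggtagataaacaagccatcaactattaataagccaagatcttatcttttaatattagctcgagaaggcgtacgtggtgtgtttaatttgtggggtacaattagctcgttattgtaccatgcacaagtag
Prx37, chr4:5600349-5600648, minus strand, box starting at 31: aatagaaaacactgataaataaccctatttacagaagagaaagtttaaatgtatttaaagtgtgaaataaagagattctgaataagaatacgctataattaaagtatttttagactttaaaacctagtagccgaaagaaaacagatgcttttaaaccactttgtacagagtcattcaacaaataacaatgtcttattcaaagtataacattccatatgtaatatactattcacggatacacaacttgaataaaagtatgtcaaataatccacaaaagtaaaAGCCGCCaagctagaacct
AACT1, chr5:24608355-24608654, plus strand, box starting at -22: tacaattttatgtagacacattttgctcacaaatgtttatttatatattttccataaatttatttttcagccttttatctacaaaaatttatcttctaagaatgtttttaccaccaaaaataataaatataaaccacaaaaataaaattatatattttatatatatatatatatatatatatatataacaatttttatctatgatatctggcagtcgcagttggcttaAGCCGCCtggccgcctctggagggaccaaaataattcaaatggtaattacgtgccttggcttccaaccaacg
Positions count from the gene start, negative before it. A match is a description of these letters and not evidence of binding.

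**Figure D2:**
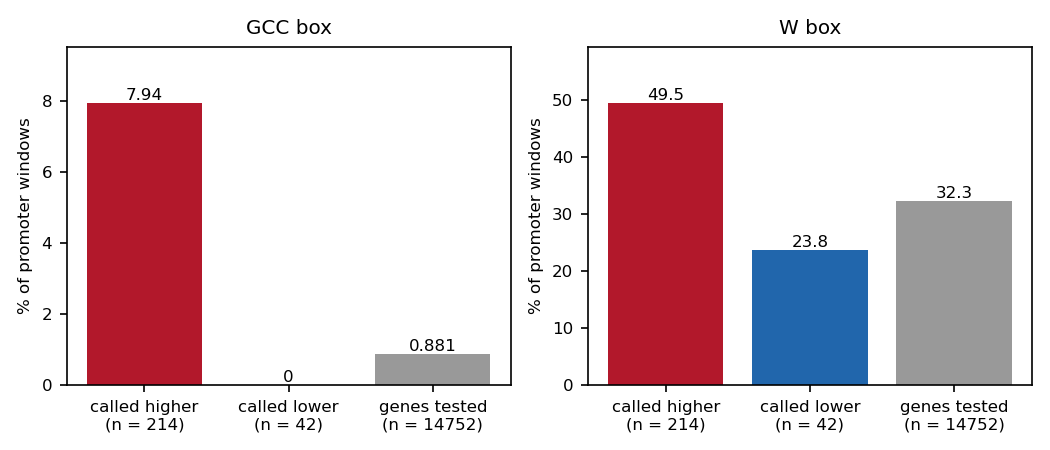
Bars give the percent of promoter windows that hold a GCC box (left) or a W box (right), for genes that rose, genes that fell and all genes tested, with the number of windows under each bar. The GCC box was in 7.94%, 0 and 0.881% of them and the W box in 49.5%, 23.8% and 32.3%.

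Genes of camalexin synthesis were in part higher in aig2abc pad4. Of 12 listed genes 10 were tested and 6 were called, all higher, with a median log2 change of 2.21. CYP71A13, which turns indole-3-acetaldoxime into indole-3-acetonitrile on the way to camalexin, had 58.9, 63.7 and 69.9 CPM in aig2abc pad4, against 1.22, 2.53 and 2.99 CPM in Col-0. All 3 mutant libraries were close together and far above the wild type, a 28.4-fold rise (log2 change 4.83 ± 0.36 SE, adjusted p = 1.89e-07). PAD3, the P450 that completes camalexin, had 10.9, 15.2 and 7.56 CPM in aig2abc pad4 and 0.777, 0.337 and 0.799 CPM in Col-0 (log2 change 4.04 ± 0.47 SE, adjusted p = 5.61e-05). The near-identical CYP71A12 stood at 7.5, 4.22 and 1.64 CPM in aig2abc pad4 and 1.11, 0.506 and 1.3 CPM in Col-0, and its difference did not pass (log2 change 2.15, adjusted p = 0.093).

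The list also held called genes outside the core P450 steps. GSTF6, a glutathione transferase linked to camalexin, had 97.8, 111 and 48.5 CPM in aig2abc pad4 and 18.0, 7.42 and 9.68 CPM in Col-0 (log2 change 2.87, adjusted p = 0.000296), with GSTF7 a near-identical neighbour. AT1G26380, of the FAD-binding berberine family, had 4.04, 4.97 and 2.47 CPM in aig2abc pad4 and 0.222, 0.169 and 0.0998 CPM in Col-0 (log2 change 4.43, adjusted p = 0.000694). WRKY33, the transcription factor that activates PAD3, and AAO1, an aldehyde oxidase, rose by 1.90 and 2.27 on the log2 scale. CYP79B2, which makes indole-3-acetaldoxime from tryptophan, had 17.0, 16.6 and 21.9 CPM in aig2abc pad4 and 6.11, 10.6 and 6.09 CPM in Col-0. These ranges did not overlap, but the difference did not pass (log2 change 1.29, adjusted p = 0.0617), and CYP79B3, its paralogue, differed by -0.34.

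Tryptophan synthesis, which feeds these pathways, gave 4 called genes of 13 tested, all higher, with a median of 1.07. TSA1, the alpha chain of tryptophan synthase, had 182, 202 and 138 CPM in aig2abc pad4, against 62.0, 52.8 and 48.5 CPM in Col-0 (log2 change 1.68, adjusted p = 0.000612). ASB1, a beta subunit of anthranilate synthase, had 42.8, 35.9 and 37.8 CPM in aig2abc pad4 and 8.33, 11.8 and 14.2 CPM in Col-0 (log2 change 1.76, adjusted p = 0.00119). AT2G04400, annotated with indole-3-glycerol-phosphate synthase activity, had 77.9, 79.7 and 49.2 CPM in aig2abc pad4 and 26.8, 19.1 and 24.3 CPM in Col-0 (log2 change 1.56, adjusted p = 0.00288). The mutant libraries lay above the wild-type libraries for all of these genes. PAI2, one of the near-identical phosphoribosylanthranilate isomerases, rose by 1.81 (adjusted p = 0.0116), a call lost without aig2abc pad4 replicate 2 (1.78, adjusted p = 0.0579) or Col-0 replicate 2 (1.66, adjusted p = 0.0774). The 9 other genes ranged between -0.17 and 1.57, with ASA1, PAT1 and TSB1 just short of the threshold (adjusted p = 0.0785, 0.0649 and 0.0785), and 7 genes passed without aig2abc pad4 replicate 3.

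WRKY factors such as WRKY33 bind the W box, searched here as TTGACC or TTGACT on both strands. It was found in 106 of 214 windows of genes that rose (49.5%), in 10 of 42 of genes that fell (23.8%) and in 4765 of 14752 genes tested (32.3%). Among named genes 25 of 54 windows held it, and 4 held 3 boxes each, all upregulated: TSA1, ASB1, GSTF7 and AT4G16260. Those of the first 3 are printed with the boxes in capitals, in either orientation, as examples from tryptophan synthesis and glutathione conjugation.
TSA1, chr3:20225474-20225773, minus strand, boxes starting at -212, -63 and 36: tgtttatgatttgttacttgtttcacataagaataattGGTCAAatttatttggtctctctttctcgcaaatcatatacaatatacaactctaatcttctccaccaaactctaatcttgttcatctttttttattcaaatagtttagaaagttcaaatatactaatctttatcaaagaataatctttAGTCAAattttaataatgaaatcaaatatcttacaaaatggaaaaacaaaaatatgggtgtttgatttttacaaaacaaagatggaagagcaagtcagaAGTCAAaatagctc
ASB1, chr1:8839560-8839859, minus strand, boxes starting at -117, -62 and -56: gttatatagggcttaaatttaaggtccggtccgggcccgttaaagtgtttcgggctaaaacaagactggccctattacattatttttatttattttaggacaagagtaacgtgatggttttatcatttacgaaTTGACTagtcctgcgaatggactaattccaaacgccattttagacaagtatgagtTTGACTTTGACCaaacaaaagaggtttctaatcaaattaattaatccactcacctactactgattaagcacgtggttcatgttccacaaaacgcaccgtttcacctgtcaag
GSTF7, chr1:659931-660230, minus strand, boxes starting at -152, -63 and -55: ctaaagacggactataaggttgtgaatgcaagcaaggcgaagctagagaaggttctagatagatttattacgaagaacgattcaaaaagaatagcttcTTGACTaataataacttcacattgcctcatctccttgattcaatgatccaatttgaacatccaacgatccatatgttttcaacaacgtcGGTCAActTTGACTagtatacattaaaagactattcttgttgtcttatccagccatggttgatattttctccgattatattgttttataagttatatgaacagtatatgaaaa

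Of 17 indole glucosinolate genes tested, 6 were called, all higher, with a median of 0.68. MYB51, the main regulator of these compounds in shoots, had 22.2, 23.1 and 42.1 CPM in aig2abc pad4, against 3.00, 7.59 and 6.89 CPM in Col-0 (log2 change 2.33 ± 0.35 SE, adjusted p = 0.000867). The regulator MYB122 had 33 counts in aig2abc pad4 and 0 in Col-0, at least 11.9-fold higher. CYP81F2, which hydroxylates the indole ring, had 2.60, 2.26 and 1.97 CPM in aig2abc pad4 and 1 count in Col-0, in replicate 1: the ratio was 58.3 (95% interval from counting error, 10.03 to 2345; edgeR adjusted p = 0.00563). The methyltransferases that act after it rose as well. IGMT1 had 9.04, 7.08 and 10.9 CPM in aig2abc pad4 and 0.888, 0.337 and 0.299 CPM in Col-0 (log2 change 4.07, adjusted p = 0.000259, and 4.78 without Col-0 replicate 1). IGMT2 had 18.2, 23.5 and 21.9 CPM in aig2abc pad4 and 2.00, 4.05 and 3.99 CPM in Col-0 (log2 change 2.67, adjusted p = 0.000305); the IGMT copies are close enough to share reads. The core enzymes were among the 11 members that did not pass, with log2 changes of -0.39 to 0.96, among them CYP83B1 at 0.58 and SUR1 at -0.13.

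In the aliphatic glucosinolate pathway, built from methionine, 0 of 25 genes tested passed with edgeR or limma-voom and 2 did with DESeq2, both lower. At an unadjusted p under 0.05 the edgeR count was 9, all lower. The log2 changes were negative for 22 of them, with a median of -0.53 and a range of -1.02 to 0.74. MYB28, its main regulator, had 11.4, 14.8 and 13.0 CPM in aig2abc pad4 and 13.1, 18.7 and 20.6 CPM in Col-0, ranges that overlapped.

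Glutathione transferases, which conjugate glutathione to reactive compounds, gave 8 called genes of 13 tested, all higher, with a median of 2.19. GSTF2 was the most abundant, with 2002, 2025 and 3784 CPM in aig2abc pad4 and 404, 597 and 734 CPM in Col-0 (log2 change 2.17 ± 0.32 SE, adjusted p = 0.000694). GSTU4 had 38.7, 47.6 and 52.6 CPM in aig2abc pad4 and 4.00, 3.20 and 4.89 CPM in Col-0 (log2 change 3.5, adjusted p = 1.89e-06). Both genes were higher in every mutant library than in any wild-type library, and GSTF2 was highest in aig2abc pad4 replicate 3. GSTU3 (log2 change 3.17, adjusted p = 0.00134) and GSTF7 (3.08, adjusted p = 0.000612) also rose. GSTF3, a close copy of GSTF2, rose by 3.21, and GSTU10 and GSTU24 by 2.19 and 2.14. GSTU12 had 63 counts in aig2abc pad4 and 3 in Col-0: the ratio was 22.7 (95% interval from counting error, 7.41 to 113). The abundant GSTF8 and GSTU19 differed by -0.07 and -0.20 and did not pass.

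The supply of sulfur and glutathione moved less, with 2 of 14 genes higher and a median of 0.44. APR3, a reductase of activated sulfate, had 53.4, 57.4 and 36.2 CPM in aig2abc pad4 and 20.2, 14.5 and 16.3 CPM in Col-0 (log2 change 1.53, adjusted p = 0.00146). GSH2, glutathione synthetase, had 103, 107 and 54.9 CPM in aig2abc pad4 and 29.8, 25.6 and 31.2 CPM in Col-0 (log2 change 1.61, adjusted p = 0.00199). Replicate 3 was the lowest mutant library for both genes, and still above Col-0.

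**Figure D3:**
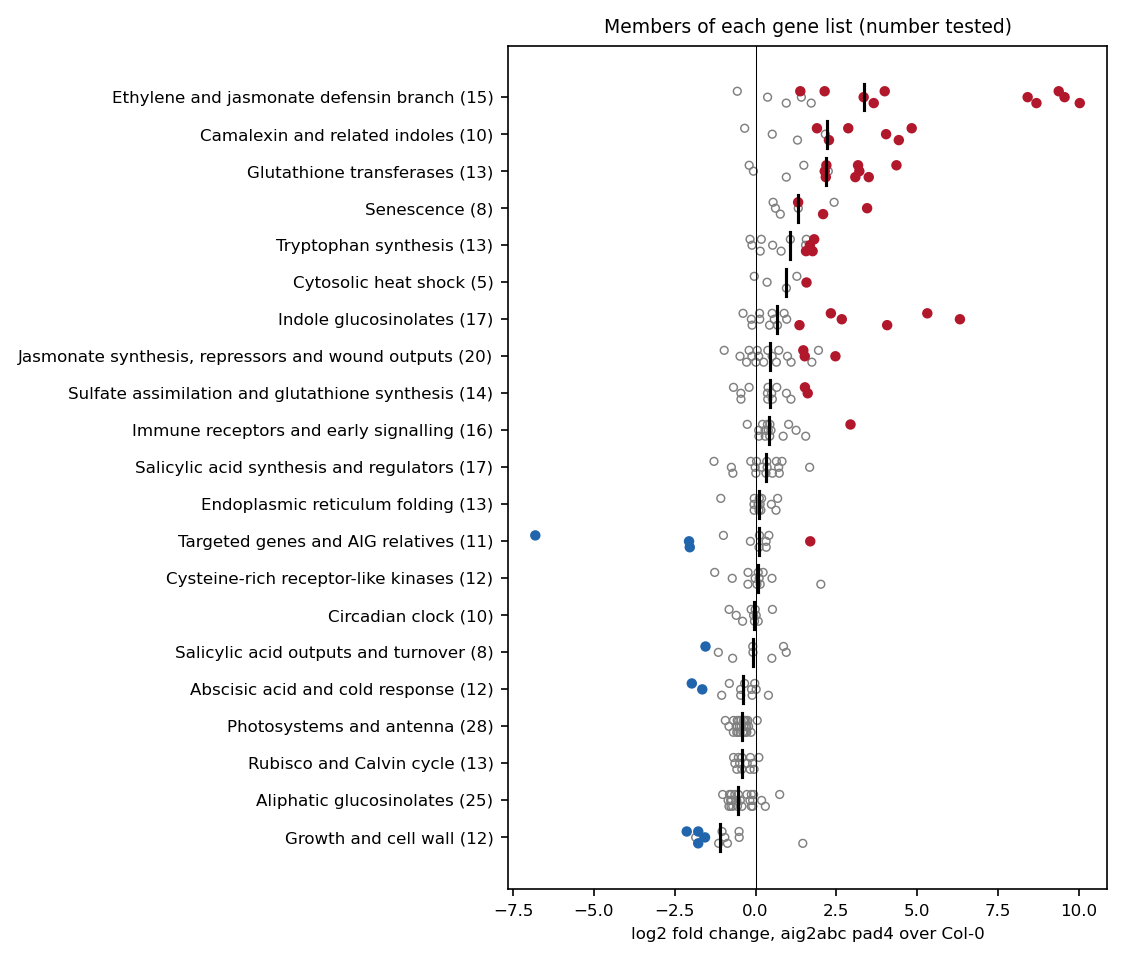
Each circle is a tested gene of a list, placed by its log2 fold change of aig2abc pad4 over Col-0; filled red and blue circles rose and fell at an adjusted p under 0.05, open circles did not pass, black bars are medians, and the number tested stands beside each list. Lists run from the defensin branch at a median of 3.34 to growth and cell wall at -1.09.

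Jasmonate synthesis and its wound outputs rose in few members. Of 20 genes tested 3 were called, all higher, with a median of 0.44. AOC3, an allene oxide cyclase of jasmonate synthesis, had 11.4, 17.6 and 27.3 CPM in aig2abc pad4 and 3.11, 4.55 and 2.60 CPM in Col-0 (log2 change 2.47, adjusted p = 0.000291). CLH1, a chlorophyllase induced by jasmonate, had 347, 382 and 261 CPM in aig2abc pad4 and 153, 123 and 80.8 CPM in Col-0 (log2 change 1.48, adjusted p = 0.00882). JAZ1, a repressor of jasmonate responses, rose by 1.52 (adjusted p = 0.0298). The call for CLH1 was lost without Col-0 replicate 3 (1.26, adjusted p = 0.0595). That for JAZ1 was lost without any of 5 libraries, the exception being aig2abc pad4 replicate 3, with log2 changes of 1.36 to 1.68 and adjusted p = 0.0561 to 0.134. Without Col-0 replicate 3 only 1 gene of the list passed. VSP2, the vegetative storage protein of the wound branch, differed by -0.97, VSP1 by 0.01 and MYC2, the transcription factor of that branch, by 0.25, and none of these passed.

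Salicylic acid genes gave 1 call between aig2abc pad4 and Col-0, PR2, which was lower. Of 17 genes of salicylic acid synthesis and its regulators, 0 passed with edgeR or limma-voom and 1 with DESeq2, with 4 at an unadjusted edgeR p under 0.05. They had a median of 0.32 and a range of -1.29 to 1.67. ICS1, the isochorismate synthase that makes most of the hormone, had 11.3, 14.2 and 25.0 CPM in aig2abc pad4 and 9.33, 13.7 and 20.7 CPM in Col-0, ranges that overlapped (log2 change 0.19 ± 0.34 SE, adjusted p = 0.887). WRKY70, a transcription factor of this branch, had 48.8, 56.2 and 28.6 CPM in aig2abc pad4 and 27.6, 24.5 and 28.3 CPM in Col-0 (log2 change 0.73, adjusted p = 0.355).

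Among 8 outputs of the hormone that were tested, 1 was called, lower, with a median of -0.09. PR1 had 259, 263 and 136 CPM in aig2abc pad4, against 98.1, 142 and 224 CPM in Col-0. The 2 groups overlapped, and the difference did not pass (log2 change 0.50 ± 0.32 SE, adjusted p = 0.611). PR5 had 132, 115 and 92.6 CPM in aig2abc pad4 and 62.3, 93.4 and 206 CPM in Col-0 (log2 change -0.09 ± 0.35 SE, adjusted p = 0.961). PR2, a beta-1,3-glucanase, was the gene that fell, with 64.4, 75.2 and 67.1 CPM in aig2abc pad4 and 103, 160 and 355 CPM in Col-0 (log2 change -1.58 ± 0.34 SE, adjusted p = 0.0185). The mutant libraries were close together and the wild-type ones spread widely, and Col-0 replicate 3 was the highest wild-type library for all 3 PR genes. The PR2 call was lost without Col-0 replicate 3 (log2 change -0.93, adjusted p = 0.121), aig2abc pad4 replicate 1 (-1.51, 0.0944) or aig2abc pad4 replicate 2 (-1.63, 0.081), and without Col-0 replicate 3 another member passed as higher.

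The PR genes of aig2abc pad4 were well above those of pad4, the mutant that differs from it by the AIG2 lesions. Levels in pad4 were 5.54, 5.52 and 3.51 CPM for PR1, 10.7, 12.9 and 9.71 CPM for PR2, and 14.6, 11.8 and 11.4 CPM for PR5. The log2 differences of aig2abc pad4 from pad4 were 5.49 ± 0.40 for PR1 (adjusted p = 7.76e-08), 2.63 ± 0.36 for PR2 (0.000141) and 3.17 ± 0.39 for PR5 (4.33e-05). All 8 outputs tested were called higher than in pad4, where 3.34% of genes tested were called higher. Against aig2abc, which has an intact PAD4 label, the differences were -0.56 ± 0.32 for PR1 (adjusted p = 0.208), -2.43 ± 0.35 for PR2 (0.00117) and -0.57 ± 0.36 for PR5 (0.252). ICS1 levels in aig2abc were 83.8, 59.8 and 89.0 CPM, and aig2abc pad4 was lower by a log2 difference of -2.24 ± 0.35 (adjusted p = 0.00158).

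**Figure D4:**
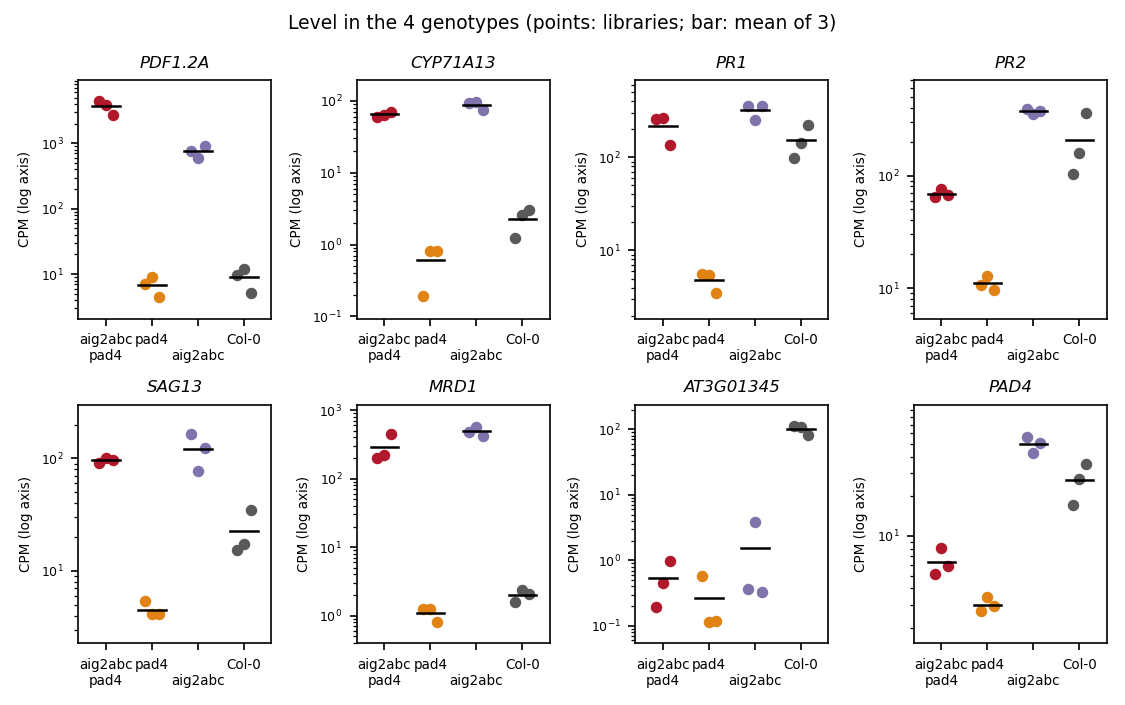
Points are the CPM of each of the 3 libraries of aig2abc pad4, pad4, aig2abc and Col-0 on a log axis, and bars are means of 3, for 8 genes. PDF1.2A and CYP71A13 are high in both genotypes with the AIG2 lesions, PR1 is low in pad4 alone, and AT3G01345 is high in Col-0 alone.

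Levels in the genotypes without the pad4 or without the AIG2 lesions differed by gene. For PDF1.2A the mean level was 3668 ± 846 CPM in aig2abc pad4, 6.83 ± 2.27 CPM in pad4, 752 ± 158 CPM in aig2abc and 8.98 ± 3.53 CPM in Col-0 (SD, n = 3 each). It was higher in aig2abc pad4 than in aig2abc by 2.28 ± 0.33 on the log2 scale (adjusted p = 0.00117). ORA59, in contrast, averaged 109 ± 15.4 CPM in aig2abc pad4 and 109 ± 12.1 CPM in aig2abc, a log2 difference of 0.01 ± 0.27. CYP71A13 averaged 64.2 ± 5.52 CPM in aig2abc pad4 and 86.9 ± 11.9 CPM in aig2abc (log2 difference -0.43 ± 0.30, adjusted p = 0.299). MYB51 was lower in aig2abc pad4 than in aig2abc, at 29.1 ± 11.2 against 64.4 ± 8.5 CPM (log2 difference -1.15 ± 0.34, adjusted p = 0.0221), and so was GSTF2 (-1.45 ± 0.32, adjusted p = 0.00579). Of the 55 named genes, 49 differed between aig2abc pad4 and pad4 and 24 between aig2abc pad4 and aig2abc, where 4% and 24.3% of all genes tested did. These contrasts share the aig2abc pad4 libraries with the main comparison and are given side by side only.

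Immune receptors and early signalling gave 1 called gene of 16 tested, with a median of 0.41, where 1.42% of all genes tested were called higher. The called gene was NHL10, a gene used as a marker of early immune responses, with 3.46, 4.52 and 1.32 CPM in aig2abc pad4 and 0.444, 0.337 and 0.399 CPM in Col-0 (log2 change 2.91, adjusted p = 0.0176). This call was lost without aig2abc pad4 replicate 1 (2.87, adjusted p = 0.0577), aig2abc pad4 replicate 2 (2.61, 0.106), Col-0 replicate 2 (2.84, 0.0781) or Col-0 replicate 3 (2.91, 0.0721). Of 12 cysteine-rich receptor-like kinases 0 passed with edgeR, 2 were under an unadjusted p of 0.05 and 1 passed with DESeq2, with a median of 0.06. Of 13 chaperones and folding enzymes of the endoplasmic reticulum 0 passed with edgeR, limma-voom or DESeq2 and 2 were under an unadjusted p of 0.05, with a median of 0.11. Of 5 cytosolic heat shock genes HSP70 rose, with 17.9, 22.2 and 29.8 CPM in aig2abc pad4 and 3.89, 6.75 and 12.9 CPM in Col-0 (log2 change 1.55, adjusted p = 0.0278). That call was lost without aig2abc pad4 replicate 2 or 3 or Col-0 replicate 1 or 2, with log2 changes of 1.24 to 1.61 and adjusted p = 0.0569 to 0.152, and the change was 2.15 without Col-0 replicate 3. Without Col-0 replicate 1 a cysteine-rich receptor-like kinase also passed (1 of the list, higher).

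Senescence-associated genes leaned upwards, with 3 of 8 genes called, all higher, and a median of 1.32. Over all genes tested 1.42% were called higher. SAG13, a short-chain alcohol dehydrogenase used as an early marker of senescence and cell death, had 90.06, 100.1 and 97.4 CPM in aig2abc pad4 and 15.3, 17.2 and 34.8 CPM in Col-0 (log2 change 2.09, adjusted p = 0.00101). SAG21 had 285, 308 and 233 CPM in aig2abc pad4 and 119, 106 and 107 CPM in Col-0 (log2 change 1.31, adjusted p = 0.00646). SAG12, a cysteine protease of late senescence, had 18.6, 14.9 and 5.10 CPM in aig2abc pad4 and 2.89, 0.169 and 0.299 CPM in Col-0 (log2 change 3.45, adjusted p = 0.00675). Its level varied within both groups, with replicate 3 lowest in the mutant and replicate 1 highest in the wild type, and without that wild-type library, Col-0 replicate 1, the log2 change was 5.63. The SAG12 call was lost in a fit of only the 6 libraries compared (edgeR adjusted p = 0.0885). Each of the 8 tested genes had a positive log2 change.

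Photosynthesis genes had mostly negative changes, of which 0 passed with edgeR. Among 28 genes of the photosystems and antenna, 5 were under an unadjusted p of 0.05, 2 passed with DESeq2 and 0 with limma-voom, 27 had a negative log2 change and the median was -0.42. Among 13 genes of Rubisco and the Calvin cycle 1 was under an unadjusted p of 0.05, 0 passed with DESeq2 or limma-voom, 12 were negative and the median was -0.42. The summed level of the photosystem list was 138530, 150010 and 184360 CPM in aig2abc pad4 and 193790, 248390 and 196880 CPM in Col-0, so that all 3 mutant sums were below all 3 wild-type sums. LHCB1.4, of the light-harvesting antenna, had the lowest log2 change of that list (-0.94, adjusted p = 0.1465). Of 10 circadian clock genes 0 passed with edgeR, DESeq2 or limma-voom and 0 were under an unadjusted p of 0.05, with a median of -0.05.

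Among abscisic acid and cold response genes 2 of 12 were called, both lower, with a median of -0.40. KIN2 had 465, 455 and 593 CPM in aig2abc pad4, against 2052, 1308 and 1390 CPM in Col-0 (log2 change -1.65 ± 0.28 SE, adjusted p = 0.00242). KIN1, its adjacent near-identical copy, had 1.73, 0.904 and 1.48 CPM in aig2abc pad4 and 4.55, 5.23 and 6.79 CPM in Col-0 (log2 change -1.97, adjusted p = 0.0159). Reads may be split between these copies. The KIN1 call was lost without aig2abc pad4 replicate 2 (-1.73, adjusted p = 0.142) or Col-0 replicate 3 (-1.79, adjusted p = 0.0733). COR15A, a cold-induced chloroplast protein, had 88.3, 78.8 and 45.4 CPM in aig2abc pad4 and 195, 106 and 139 CPM in Col-0 and did not pass (log2 change -1.05, adjusted p = 0.1465).

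Growth and cell wall genes had the lowest median of the 21 pathway lists, -1.09, with 4 of 12 genes called, all lower. SAUR22, of the small auxin-induced family that promotes cell expansion, had 5, 6.48 and 2.63 CPM in aig2abc pad4, against 23.3, 21.3 and 17.9 CPM in Col-0 (log2 change -2.13 ± 0.35 SE, adjusted p = 0.00199). SAUR20 had 12.5, 15.2 and 6.08 CPM in aig2abc pad4 and 50.3, 34.2 and 31.7 CPM in Col-0 (log2 change -1.77, adjusted p = 0.00909). The SAUR20 call was lost in a fit of only the 6 libraries compared. EXPA11, an expansin that loosens cell walls, had 20.0, 19.0 and 17.3 CPM in aig2abc pad4 and 65.8, 53.0 and 47.9 CPM in Col-0 (log2 change -1.56, adjusted p = 0.00296). Mutant and wild-type libraries did not overlap for any of these genes, and the SAUR genes were lowest in aig2abc pad4 replicate 3. SAUR21 fell by 1.78 (adjusted p = 0.0319), a call lost without aig2abc pad4 replicate 1 (-1.70, adjusted p = 0.121), aig2abc pad4 replicate 3 (-1.53, 0.0657) or Col-0 replicate 1 (-1.25, 0.201). SAUR19 to SAUR24 are near-identical tandem copies, so the split among them is uncertain. The gene with a positive change was TCH4, a xyloglucan endotransglucosylase (1.46), which did not pass. Without Col-0 replicate 1 the list had 1 member that passed as higher.

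**Figure D5:**
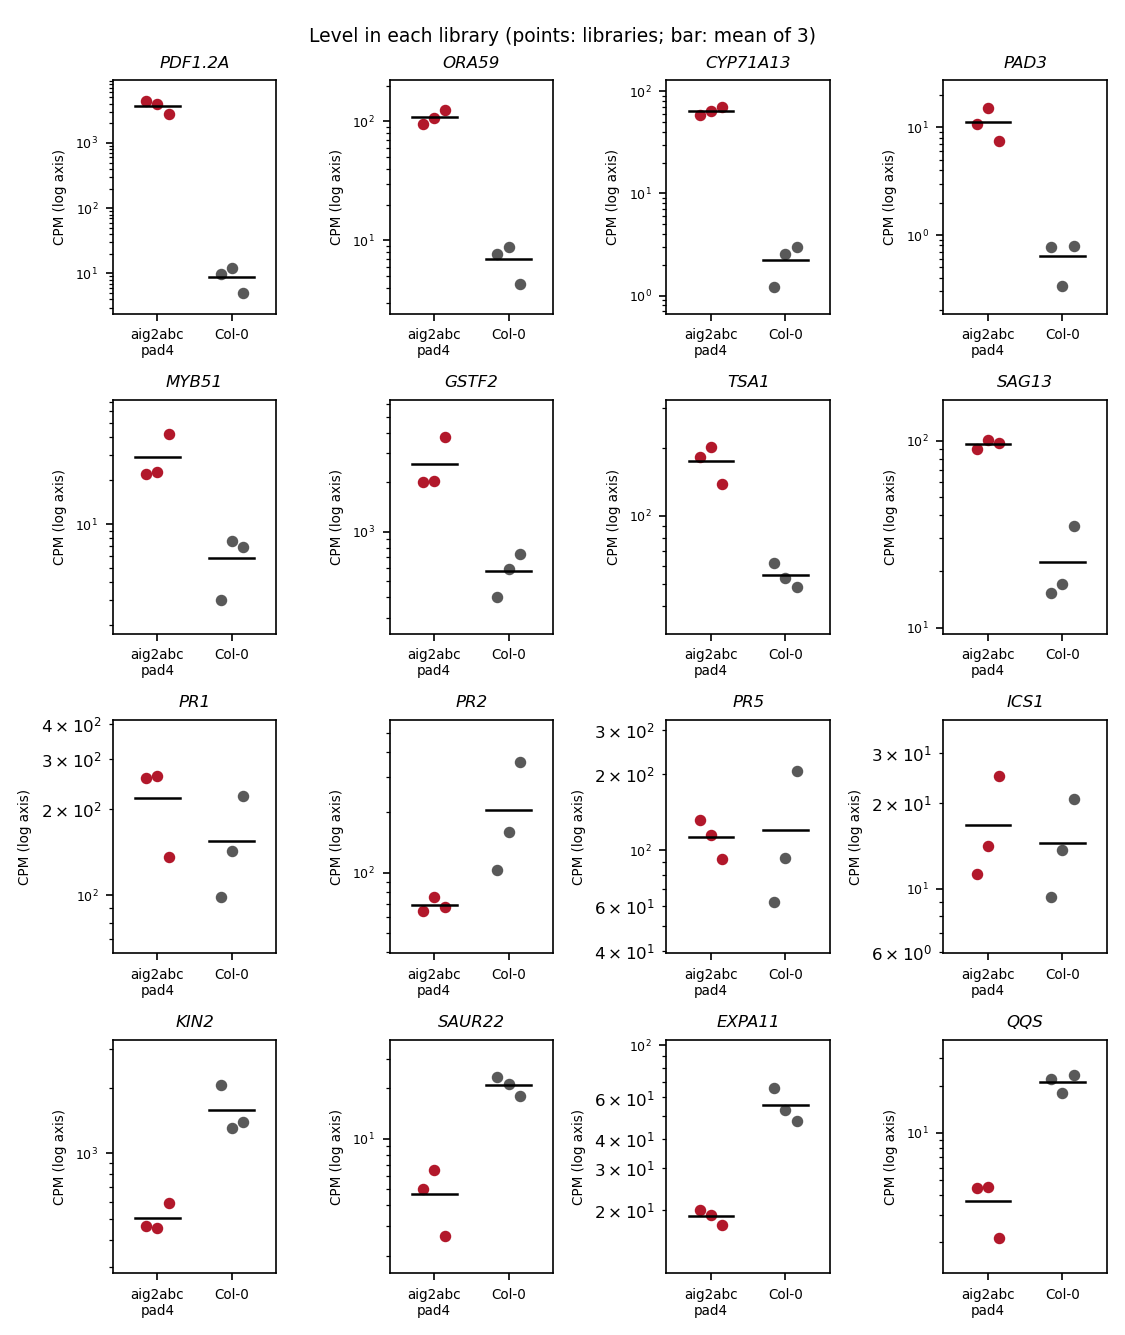
CPM on a log axis for 16 genes in each of the 3 libraries of aig2abc pad4 (red) and the 3 of Col-0 (grey), with bars at the means. The defensin, camalexin, glucosinolate, tryptophan, glutathione transferase and senescence genes in the first 2 rows do not overlap between groups, PR1, PR5 and ICS1 do, and KIN2, SAUR22, EXPA11 and QQS lie below Col-0.

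Among the largest changes outside the lists was MRD1, whose product has no known biochemical role. It had 199, 222 and 450 CPM in aig2abc pad4, against 1.55, 2.36 and 2.1 CPM in Col-0 (145-fold, log2 change 7.18 ± 0.40 SE, adjusted p = 7.67e-09). AT2G43590, of the chitinase family, had 1189, 1148 and 726 CPM in aig2abc pad4 and 17.9, 13.0 and 9.98 CPM in Col-0 (log2 change 6.23, adjusted p = 2.05e-08). AT4G16260, a glycosyl hydrolase, had 173, 186 and 70.5 CPM in aig2abc pad4 and 2.66, 1.18 and 0.499 CPM in Col-0 (log2 change 6.61, adjusted p = 1.53e-06). MRD1 was highest in aig2abc pad4 replicate 3, where the 2 hydrolases were lowest. AACT1, an anthocyanin acyltransferase by its RefSeq product name only, had 186, 174 and 114 CPM in aig2abc pad4 and 4.11, 1.18 and 1.3 CPM in Col-0 (log2 change 6.13, adjusted p = 1.14e-07). Prx37, a peroxidase, had 77.6, 69.6 and 51.8 CPM in aig2abc pad4 and 0.999, 0.169 and 0.399 CPM in Col-0 (log2 change 6.86, adjusted p = 1.89e-07). Without Col-0 replicate 1, their highest wild-type library, the log2 changes of AT4G16260, AACT1 and Prx37 were 7.52, 6.99 and 7.68. AT1G59950, an NAD(P)-linked oxidoreductase, had 33.6, 34.8 and 16.4 CPM in aig2abc pad4 and 0.222, 0.337 and 0.200 CPM in Col-0 (log2 change 6.77, adjusted p = 1.89e-07).

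Of the genes that fell most, 3 were low in every mutant genotype of the series. AT3G01345, an uncharacterized protein, had 0.192, 0.452 and 0.987 CPM in aig2abc pad4, against 112, 109 and 82.9 CPM in Col-0 (log2 change -7.63 ± 0.51 SE, adjusted p = 4.26e-08). It had 0.573, 0.115 and 0.117 CPM in pad4 and 0.371, 3.86 and 0.328 CPM in aig2abc, where the high value is that of the shallowest library, and aig2abc pad4 did not differ from either genotype at the threshold (edgeR adjusted p = 0.776 and 0.771). Its log2 change from Col-0 was -8.33 without aig2abc pad4 replicate 3. AT3G42658.1, which had no match in the gene table, stood at 2.21, 1.36 and 2.63 CPM in aig2abc pad4 and 46.0, 92.8 and 59.6 CPM in Col-0 (log2 change -4.98, adjusted p = 1.89e-07). QQS, a gene that affects leaf starch and is known for variable epigenetic silencing, had 4.43, 4.52 and 2.14 CPM in aig2abc pad4 and 22.1, 17.9 and 23.4 CPM in Col-0 (log2 change -2.49, adjusted p = 0.000458). It averaged 7.54 ± 3.01 CPM in pad4 and 2.95 ± 1.16 CPM in aig2abc (SD, n = 3 each). Wild-type libraries were above every library of the 3 mutant genotypes for all 3 genes.

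Markers of cell types were set beside these results. Of the 7 lists of tissues and cell types, 0 genes passed with edgeR or limma-voom, 1 passed with DESeq2 and 1 was under an unadjusted p of 0.05. Only 1 of 6 root, 1 of 5 flower and 0 of 4 mature seed markers were tested. Dividing cells and guard cells had 3 of 5 tested each, and vascular tissue and the epidermis with trichomes 5 of 5. With so few genes, and 1.74% of all genes tested called, a count of 0 does not show that tissue make-up was alike. The defining genes of mature seeds (0 to 0.2 CPM summed) and flowers (1.4 to 3.8 CPM summed) were near 0 in all 6 libraries, and 3 of 6 root markers had 0 counts in them; the labelled tissue was the shoot. Guard cell markers summed to 359, 311 and 69.7 CPM in aig2abc pad4 and 479, 207 and 198 CPM in Col-0, and were lowest in the mutant library that stood apart. Markers of dividing cells summed to 113, 143 and 114 CPM in aig2abc pad4 and 175, 154 and 157 CPM in Col-0, ranges that did not overlap. Of the 3 that were tested 0 were called, with 1 positive and 2 negative log2 changes and a median of -0.22, and a sum is weighted to its most abundant members. The part of these markers in the results above, those of growth and cell wall included, was not tested.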

How the data were processed

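Whole-shoot RNA was profiled by 3′ RNA-seq in 12 libraries of 4 genotypes. The deposited values were whole-number counts per gene that the authors left unnormalized. STAR, edgeR and the build TAIR10 are named, without versions, per the submitters' processing notes. The sources used here do not give the annotation or the strand setting, so overlapping, antisense and near-identical genes are uncertain. Of 33331 genes, 11272 had 0 counts in every library. Names came from RefSeq TAIR10.1, which matched 28932 identifiers. Promoter coordinates and letters are of that assembly, since the files hold no coordinates.

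The test was that of edgeR 4.0.16 under R 4.3.3: filterByExpr by group, TMM, and a robust two-sided quasi-likelihood fit of group means over all 12 libraries, with Benjamini-Hochberg adjustment over 15082 genes. A gene was called at an adjusted p under 0.05, whatever its fold change. Standard errors are the log2 change divided by the root of the F statistic. Ratios with 1 to 3 counts carry exact 95% intervals. Alternatives used DESeq2 1.42.0, limma-voom (limma 3.58.1), other filters and scalings, and left out libraries.

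The genotypes, gene lists and naming rule were chosen with earlier results of these data known. The rule took AIG2A, AIG2B, AIG2C and PAD4, then 10 further defence genes whether called or not. It added, for each list, the called members with the smallest p, at most 4. It also added 10 genes in each direction with the largest change, given a mean of at least 10 CPM and no overlap between groups. All other genes given with values were chosen after their values were seen.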

Additional observations from a re-analysis of the deposited data

How the results depend on the processing

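All 51 named genes that were called kept their direction under the 15 alternatives (13 for NHL10), and 30 of them were called under each. Most were picked by their p or change in these same libraries, which the alternatives reuse. A kept direction was therefore likely in advance and is not separate support. Of 823 gene results under the alternatives 758 kept their side of the threshold, 59 lost the call and 6 changed sign, all of the last for genes not called. These were PR5 with limma-voom (log2 change 0.078), under the replicate block (0.12) and without either library numbered 3 (-0.38 to 0.55 over the libraries left out), and ICS1 without aig2abc pad4 replicate 3 (-0.21) and without Col-0 replicate 1 (-0.031). The 263 calls (214 higher, 49 lower) became 442 with DESeq2, 139 of them lower, and 77 were lower with no filter on low counts. With a fold minimum of 2 they were 93, with 87 higher, 6 lower and 29 in the lists in place of 55. In a fit of only the 6 libraries compared 169 were called, 19 of them lower, and without the aig2abc libraries 23 were lower. Leaving out each library gave 163 to 326 calls, 150 to 241 higher and 13 to 85 lower, and 45 to 60 in the lists. Against aig2abc, 10 named genes passed with a fold minimum of 2 and 24 without it; the alternatives for this contrast and that against pad4 were chosen after seeing the data. Deviations of the same-numbered libraries of both genotypes had correlations of 0.542, -0.274 and 0.426, and aig2abc pad4 replicate 2 correlated best with Col-0 replicate 1 (0.388). The rule set for pairing, all 3 over 0.1, was not met, so the main fit had no replicate block. The labels do not say what a number marks, and whether the numbers pair the samples is unresolved. With the replicate block on the 6 libraries, 546 genes were called, 373 higher and 173 lower. The cause of these shifts was not tested. The depth, with a floor of 0.13 CPM in aig2abc pad4 and 0.12 CPM in Col-0 for 3 counts over a group, limits statements on genes with few counts.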

Other observations

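Families, chosen after their values were seen, were also counted by their RefSeq product names. List genes were not left out, so some calls given above are counted again here. Among them are AT1G26380, CYP81F2, CYP71A13, PAD3 and WRKY33. Over all genes tested 1.42% were called higher and 0.325% lower. In the FAD-binding berberine family, 4 of 11 genes tested were called, all higher and with neighbouring codes on chromosome 1. AT1G26410 had 5.48, 6.03 and 11.2 CPM in aig2abc pad4 and 0.333, 0.337 and 0.898 CPM in Col-0, and AT1G26390 had 9.91, 13.4 and 15.5 CPM in aig2abc pad4 and 3.00, 3.20 and 1.3 CPM in Col-0. Of 25 peroxidases 7 rose, among them PRXCA, with 112, 130 and 203 CPM in aig2abc pad4 and 17.9, 14.3 and 16 CPM in Col-0 (edgeR, log2 change 3.20, adjusted p = 6.79e-06). Cytochrome P450 genes gave 9 called of 92, all higher, and CYP71B22 had 105, 99.5 and 144 CPM in aig2abc pad4 and 15.4, 25.1 and 19.5 CPM in Col-0. WRKY transcription factors gave 4 of 32, all higher, led by WRKY45 with 21.7, 24.7 and 43.6 CPM in aig2abc pad4 and 2.78, 2.02 and 2.30 CPM in Col-0 (edgeR, log2 change 3.64, adjusted p = 1.85e-06). Median log2 changes were 1.885 in the berberine family, 0.71 in peroxidases, 0.19 in P450 genes and 0.50 in WRKY factors.

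Some sets picked by product name held genes that moved both ways. Of 19 genes with the word extensin in that name 3 rose and 3 fell, with a median of -0.42. Whether the genes that rose and those that fell belong to the same family was not examined. EXT4 had 78.9, 53.0 and 75.2 CPM in aig2abc pad4 and 14.2, 16 and 13.1 CPM in Col-0. AT2G27385 had 37.5, 29.8 and 28.8 CPM in aig2abc pad4 and 104, 60.7 and 58.7 CPM in Col-0. Of 34 SAUR-like genes, with a median of -0.93, 5 fell, among them SAUR20, SAUR21 and SAUR22, already counted in the growth list. The 1 that rose, AT2G28085, had 6.06, 8.14 and 8.22 CPM in aig2abc pad4 and 0.555, 2.19 and 1.3 CPM in Col-0. The lectin AT3G16530 had 505, 495 and 470 CPM in aig2abc pad4 and 34.6, 24.5 and 26.6 CPM in Col-0 (edgeR, log2 change 4.1, adjusted p = 1.33e-07). The MATE-family transporter AT3G23550 had 282, 299 and 199.8 CPM in aig2abc pad4 and 5.44, 9.78 and 4.69 CPM in Col-0 (edgeR, log2 change 5.31, adjusted p = 2.92e-08). PXMT1, a methyltransferase, had 159.5, 169 and 305 CPM in aig2abc pad4 and 4.33, 6.58 and 5.39 CPM in Col-0 (edgeR, log2 change 5.29, adjusted p = 8.3e-07).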
